A study of Caenorhabditis elegans with 2 samples.

Results

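Cilium and intraflagellar transport genes were examined for regions bound by the LIM homeodomain factor LIN-11 in *Caenorhabditis elegans*. The genes were all protein-coding genes whose annotated name begins with bbs-, ift-, ifta-, che-, osm-, dyf-, mks-, mksr-, nphp- or xbx-, together with *daf-19*, *daf-10* and *arl-13*, which gave 64 of 19973 protein-coding genes. Membership used names only and no measured value, but the set was chosen with earlier results of these data known. A name is not a function, and the set also holds *osm-7*, *osm-8* and *osm-11*, which are known for responses to osmotic stress and not for cilia, and *che-1*, which encodes a zinc-finger factor of the ASE taste neurons.

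LIN-11 was profiled by chromatin immunoprecipitation and sequencing (ChIP-seq) in 1 group of 2 biological replicates. Males and females were pooled, at the L2 larval stage and of unknown age, and whole animals of strain OP62 were used. This strain carries the *unc-119* allele ed3 on chromosome III and the insertion wgIs62, and it expresses LIN-11 with GFP and FLAG at its C terminus. No mutation of *lin-11* itself is listed, and the promoter of the tagged copy is not stated. The stock of replicate 1 is credited to the laboratory and that of replicate 2 to the CGC stock centre, sonication is noted for replicate 1 only, and the antibody is given only by its target, LIN-11. There was no other genotype, stage or treatment, so the comparison is between the cilium genes and all protein-coding genes. In whole animals, binding in fewer cells and weaker binding in each cell cannot be told apart. Sequencing depth is unknown.

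In *C. elegans* cilia are found on sensory neurons, at the tips of their dendrites. Cargo is carried along the cilium by intraflagellar transport (IFT): kinesin-2 motors move trains of IFT-A and IFT-B complexes to the tip, a dynein motor returns them, and the BBSome links cargo to the trains. A transition zone made of MKS and NPHP proteins closes the base. Many of these genes are switched on by the RFX factor DAF-19 through the X-box, a near-palindromic promoter motif. LIN-11 is known to act in the fates of several neurons, among them the ciliated ASG and AWA neurons, and also in the vulva and uterus.

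On the ce11 assembly, 30000 candidate regions were listed for each replicate and for both together, the pooled list. Candidates include weak regions and background. The authors' optimal list held 1917 peaks, and these were the 1917 pooled regions of highest signal, from 27.8 to 356.0. Signal is the authors' own value for each region, and it was used only within a list. A gene was counted where a summit fell in its promoter window, which reached 1000 bp upstream and 200 bp downstream of any of its transcript starts. A replicate's top list means its 1917 strongest regions.

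Most cilium genes had a candidate region at the promoter, but few of these regions were in the optimal list, as for protein-coding genes in general. A pooled candidate lay in the promoter window of 53 of the 64 cilium genes (82.8%), against 8186 of 19973 protein-coding genes (41.0%). With the stronger 50% of pooled candidates the count in this window was 42 (65.6%), against 27.1%. An optimal peak lay there in 10 cilium genes (15.6%), against 1675 protein-coding genes (8.39%). For the stronger 50% of optimal peaks the share was not higher, at 2 cilium genes (3.12%), against 4.84% of protein-coding genes. With so few genes no direction is read from this. Among genes with any candidate the shares lay close together, with 10 of 53 cilium genes (18.9%) and 1675 of 8186 protein-coding genes (20.5%) at the optimal level. The gap between the sets was thus wide for candidates of any strength and narrow for the optimal share among them. With 1 group of samples no test of these shares was made.

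In both replicates the share was higher for cilium genes. In replicate 1, 40 cilium genes (62.5%) had a candidate in the window, against 39.5% of protein-coding genes. In replicate 2 the count was 49 (76.6%), against 41.4%. A candidate from each replicate was found in the window of 34 cilium genes (53.1%), against 26.7% of protein-coding genes. The top lists held 7 cilium genes in replicate 1 (10.9%, against 7.79%) and 10 in replicate 2 (15.6%, against 8.30%). Of the 77 pooled candidates in cilium gene windows, 35 had a summit of both replicates within 100 bp, 13 of replicate 1 only, 23 of replicate 2 only and 6 of neither. That is 45.5% matched in both, against 32.8% of the 9563 candidates in all promoter windows.

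**Figure D1:**
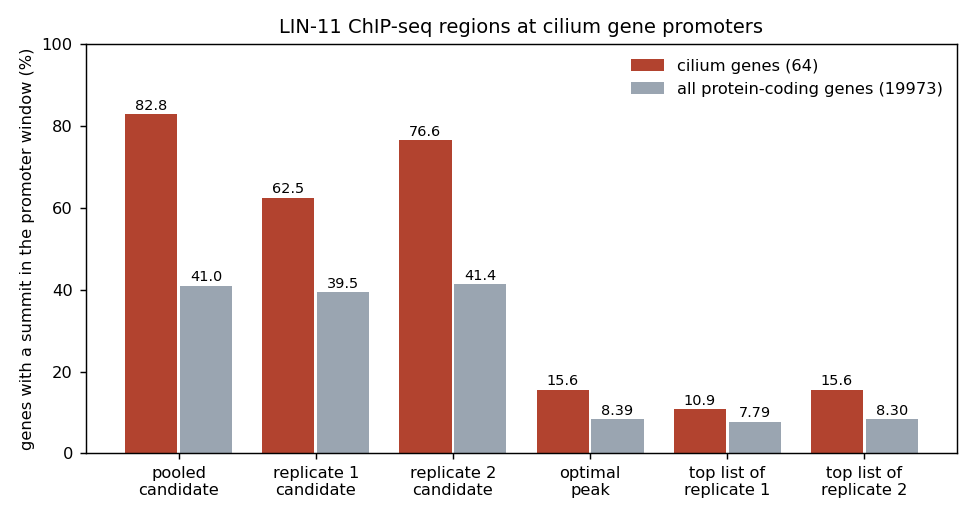
Share of genes (%) with a summit in the promoter window, for 64 cilium genes and for 19973 protein-coding genes, in each list. Candidate regions were found at 82.8% of cilium genes and 41.0% of all genes in the pooled list, and optimal peaks at 15.6% and 8.39%.

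The number of annotated starts, which sets the size of the window, was somewhat higher for cilium genes, with a mean of 1.72 against 1.47. The median window was 1201 bp in both sets, and the mean was 1578 bp for cilium genes and 1453 bp for all protein-coding genes. Of the 40 cilium genes with 1 transcript start, 32 (80.0%) had a pooled candidate, against 34.8% of the 14723 protein-coding genes with 1 start.

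The sequence most tied to these genes is the X-box, so the stretches where a candidate summit met one are shown first. The X-box consensus used here is the form described for ciliary genes, 14 bases long, searched on both strands. It was found in the promoter window of 30 of the 64 cilium genes (46.9%), against 265 of 19973 protein-coding genes (1.33%). This contrast is partly built in, because the consensus was described for ciliary genes and the xbx- genes are named for an X-box. Of the 31 matches at cilium genes, 16 had a pooled summit within 50 bp of the motif centre, each at a different gene. Sequences of 12 of them follow, read from the WBcel235 genome (RefSeq, the same assembly as ce11) on the strand of the gene, 5′ to 3′, with the X-box in capitals and 8 bases on each side.
daf-19: caattttgGTTTCCATGGAAACtacttcca
xbx-5: gatacattGTCTCCATGACAACgtcggagc
dyf-11: gtaaggtgGTCTCCATGACAACgtgccccc
osm-5: cttacataGTTACTATGGCAACgctccgct
dyf-19: cccagtcgGTTACTATGGCAACccccttct
che-2: gccagctgGTTGTCATGGTGACtgctcgcg
xbx-4: tcccactaGTTGCCATGACAACcgcgctcc
bbs-8: cgtgccctGTACCCATGGCAACgacacgtc
ifta-2: tattctctGTTGCTATGGCAACtgaaaacc
xbx-9: cgtgacgaGTAACCATAGCAACatggcatt
dyf-13: gcattcaaGTCTCCATAGCAACacgtcaag
xbx-6: agaaccatGTTTCCATGGAAACtcgagtaa

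The order is by pooled signal, and 13 of the 16 regions were below the optimal list. The first 3 were optimal peaks, with signals of 54.5 at *daf-19*, 36.7 at *xbx-5* and 36.1 at *dyf-11*. The other 9 shown ranged from 23.5 at *osm-5*, which encodes the IFT-B subunit IFT88, to 8.88 at *xbx-6*. The 4 not shown had signals of 27.3 at *arl-13*, 25.3 at *bbs-9*, 15.1 at *mks-6* and 13.05 at *ift-20*. Ranks in the pooled list of the 13 regions below the optimal list ran from 1966 to 13823. At *xbx-6* the region on the X-box is not the optimal peak of the gene, which lay 627.5 bp from the motif. Among the 16, both replicates had a summit within 50 bp of the motif centre only at *arl-13*, *bbs-8*, *dyf-11*, *osm-5* and *xbx-4*. At the others a replicate lay farther off, up to 4916 bp for replicate 1 at *dyf-13*.

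At 5 cilium genes with an X-box no pooled candidate lay anywhere in the promoter window. Sequences of 4 of them are shown for comparison, and that of *bbs-1*, whose X-box was 2448 bp from the nearest pooled summit, is not. The first 2 encode BBSome subunits (*osm-12* is the BBS7 gene), *mks-2* a transition zone protein and *xbx-1* a dynein light intermediate chain.
bbs-2: ctctttcaGTATCCATGGCAACatgtaagc
osm-12: cagctcatGTTGCCATAGTAACtcgacaac
mks-2: cttctcatGTTTCCATGACAACcagctggc
xbx-1: gaacgcccGTTTCCATGGTAACcgtcattt
The nearest pooled summit was 7780 bp away at *bbs-2*, 3252 bp at *osm-12*, 2100 bp at *mks-2* and 1128 bp at *xbx-1*. Replicate 2 had a summit closer to some of them, at 96.5 bp from the motif of *bbs-2*, 131.5 bp from that of *xbx-1* and 278.5 bp from that of *osm-12*. At *mks-2* the nearest summit of either replicate was 2730 bp away.

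A larger share of X-box matches lay near a pooled summit in cilium promoters than elsewhere. The share within 50 bp was 16 of 31 (51.6%) in cilium gene windows, against 22 of 213 (10.3%) in the windows of other genes only and 21 of 450 (4.67%) outside promoter windows. The median distance from the motif centre to the nearest pooled summit was 46.5 bp in cilium gene windows, 957.5 bp in other promoter windows and 1520 bp outside them. In replicate 1 the shares were 29.0% at cilium genes, 7.04% at other promoters and 3.56% outside promoters. In replicate 2 they were 45.2%, 9.86% and 4.89% in the same places.

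Closeness to the transcript start moved with this result. The X-boxes of cilium genes lay a median of 51.5 bp from the nearest start, against 299.5 bp for those at other genes. Summits at cilium genes were also close to starts: 29 of 53 strongest promoter candidates (54.7%) lay within 100 bp of one, against 21.9% of the 8186 protein-coding genes with a candidate. Among X-boxes within 250 bp of a start, 15 of 30 at cilium genes (50%) had a summit within 50 bp, against 17 of 95 at other genes (17.9%). The share of cilium genes with a candidate lay close together with and without the motif by this consensus. It was 25 of 30 (83.3%) for cilium genes with the motif and 28 of 34 (82.4%) for those without it. By a looser form of the consensus the shares lay further apart, at 33 of 38 (86.8%) with and 20 of 26 (76.9%) without a match. The part of the start distance in the X-box result was not tested beyond this restriction.

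**Figure D2:**
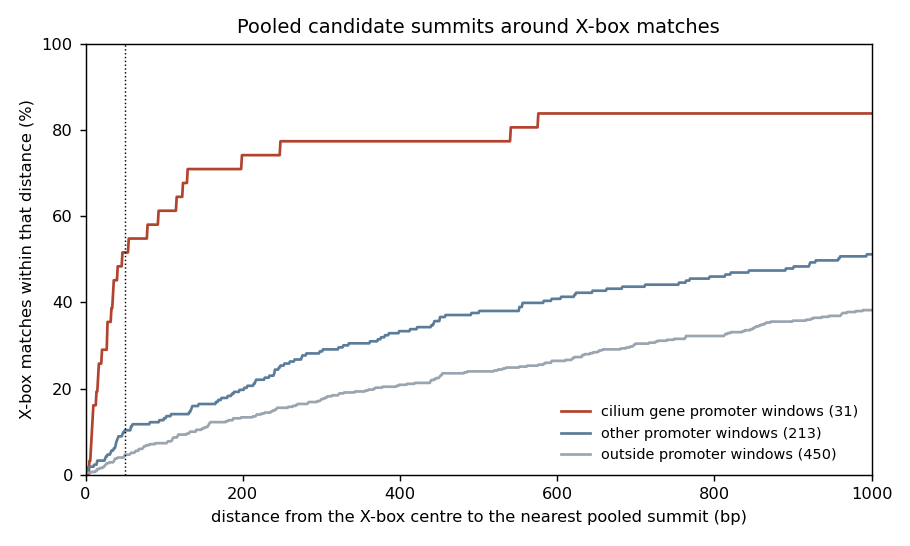
Share of X-box matches (%) whose nearest pooled summit lies within the distance on the x axis (bp), for 31 matches in cilium gene promoter windows, 213 in other promoter windows and 450 outside them. The dotted line marks 50 bp, at which the shares were 51.6%, 10.3% and 4.67%.

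The homeodomain core TAATTA, which reads the same on both strands, was rare at these regions. It lay within 50 bp of the summit of 4 of 77 pooled candidates in cilium gene windows (5.19%), against 2.73% of the 9563 candidates in all promoter windows. Of the 10 optimal peaks at cilium promoters only the *xbx-5* peak held it, against 1.21% of all 1243 optimal promoter peaks.

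The 10 cilium genes with an optimal promoter peak came from the IFT-A group (*ift-43*, *daf-10*, *ifta-1*), the IFT-B group (*dyf-11*, *dyf-3*, *ift-81*), the motors (*osm-3*), the regulators (*daf-19*) and *xbx-5* and *xbx-6*, genes named for an X-box. None of the 7 BBSome and 10 transition zone genes of the set was among them, against 8.39% of all protein-coding genes. In groups so small nothing is read from this. Their pooled signals ran from 28.3 to 92.85, and 8 of the 10 were below the median of the optimal list, 45.98. Summits of both replicates lay within 100 bp of the peak at 9 of these 10 genes, *daf-19* being the exception. The same held for 1563 of the 1675 protein-coding genes with an optimal promoter peak. Over whole sets that is 14.1% of the 64, against 7.83% of protein-coding genes. Stretches from 4 of the peaks follow, as examples with and without an X-box in the printed stretch. They are on the strand of the gene, within 50 bp of the summit and without UTR bases. The *ift-43* stretch is 62 bp long, and more was left out there than the 13 UTR bases. Capitals mark an X-box.
dyf-11, chrX:763558-763658, plus strand: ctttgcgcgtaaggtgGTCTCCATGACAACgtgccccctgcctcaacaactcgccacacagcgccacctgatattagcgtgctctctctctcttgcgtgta
ift-43, chrII:5661119-5661180, minus strand: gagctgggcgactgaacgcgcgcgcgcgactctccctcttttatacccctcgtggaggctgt
dyf-3, chrIV:3399270-3399370, minus strand: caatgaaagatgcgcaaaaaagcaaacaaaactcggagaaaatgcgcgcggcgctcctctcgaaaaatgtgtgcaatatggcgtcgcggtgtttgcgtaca
ift-81, chrX:5298287-5298387, plus strand: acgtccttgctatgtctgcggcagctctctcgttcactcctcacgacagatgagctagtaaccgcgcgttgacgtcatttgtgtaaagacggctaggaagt
Of these, the *dyf-11* stretch alone holds a match to the X-box. The *dyf-3* peak region also holds one, 115.5 bp from the summit and outside the printed stretch.

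*daf-19* encodes the RFX factor that drives ciliary gene expression. The peak at the start of its F33H1.1a transcript was the strongest whose nearest start belonged to a cilium gene. The region at chrII:10169215-10169538 had a pooled signal of 54.5 (rank 713), and its summit was 31 bp upstream of the start of the F33H1.1a transcript and 46.5 bp from an X-box. Replicate 2 had a signal of 36.7 (rank 615) there. In replicate 1 no summit lay within 100 bp. The strongest region of replicate 1 in the window had a signal of 21.1 (rank 776), 151 bp upstream of the start, so both replicates ranked a region at this promoter highly, at different positions. A second optimal peak lay in an intron of *daf-19* at chrII:10166343-10166666, 2053 bp upstream of the start of the shorter F33H1.1d transcript. It was the weakest but 1 of the list, with a pooled signal of 27.9 (rank 1916), and its signals were 14.6 in replicate 1 and 17.2 in replicate 2.

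The IFT-A complex, which acts in return transport, had a candidate at all 6 of its genes (against 41.0% of protein-coding genes) and an optimal peak at 3 (against 8.39%). The peak at *ift-43* was the strongest of all cilium genes, at chrII:5661007-5661330, with a pooled signal of 92.85 (rank 207), 48.3 in replicate 1 (rank 94) and 48.6 in replicate 2 (rank 343). Its summit lay 383 bp upstream of *ift-43* but only 12 bp from the start of *mdt-26*, a Mediator subunit gene. The *daf-10* peak (IFT122) at chrIV:9146981-9147304 was placed likewise, 932 bp upstream of *daf-10* and 274 bp from the start of *rpb-12*, an RNA polymerase subunit gene, with *aly-2* also in reach. Its signals were 38.2 in the pooled list, 13.9 in replicate 1 and 24.1 in replicate 2. These peaks lie in promoters shared with a nearer gene, and by nearest start neither counted for the cilium gene. The third, *ifta-1* (IFT121), had its own peak at chrX:5552626-5552949, 36 bp upstream of its start. Its signals were 29.0 pooled (rank 1803), 11.4 in replicate 1 (rank 2453) and 17.02 in replicate 2 (rank 1976).

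Of the 14 IFT-B genes, which serve transport to the tip, 13 had a candidate (against 41.0% of protein-coding genes) and 3 an optimal peak (against 8.39%). *dyf-11*, the IFT54 gene, had a peak at chrX:763446-763769, 144 bp upstream of its start. Its signals were 36.1 pooled, 14.04 in replicate 1 and 21.3 in replicate 2. The ranks, 1611 and 1452, put it in both top lists. *dyf-3*, the CLUAP1 gene, had a peak at chrIV:3399158-3399481 that also lay in the window of *pdhb-1*, a pyruvate dehydrogenase gene, with signals of 34.5 pooled, 11.05 in replicate 1 and 20.6 in replicate 2. *ift-81* had a peak at chrX:5298175-5298498, 224 bp upstream of its start and inside an intron of *ags-3*. It rested on replicate 2: the signal was 28.7 pooled, 4.755 in replicate 1 (rank 14858) and 24.65 in replicate 2 (rank 1178). *osm-1*, the IFT172 gene, had no candidate in its window.

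Of the transport motors, the gene of the kinesin-2 OSM-3 had an optimal peak and the dynein genes *che-3* and *xbx-1* had none. The *osm-3* peak at chrIV:3800541-3800864 lay 242 bp upstream of the nearest start, in the 5′ UTR of another transcript. Its pooled signal of 28.3 (rank 1877) was near the end of the optimal list, with 7.72 in replicate 1 (rank 5648) and 19.2 in replicate 2 (rank 1676). The dynein heavy chain gene *che-3* had only a weak candidate, with a pooled signal of 6.35 and a replicate 2 signal of 9.65, 997 bp upstream and also in the window of *rme-8*. The dynein light intermediate chain gene *xbx-1* had none.

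*xbx-5* and *xbx-6* were found in both top lists. The *xbx-5* peak at chrIII:3804303-3804626 had its summit 12 bp past the start, in the 5′ UTR, with signals of 36.7 pooled, 16.0 in replicate 1 and 20.8 in replicate 2. The *xbx-6* peak at chrV:9704426-9704749 was in an intron, 768 bp upstream of the nearest start, with signals of 33.3 pooled, 13.5 in replicate 1 and 19.1 in replicate 2. With *daf-10*, *daf-19*, *dyf-11* and *ift-43* they made 6 cilium genes in the top lists of both replicates (9.38%, against 5.62% of protein-coding genes).

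**Figure D3:**
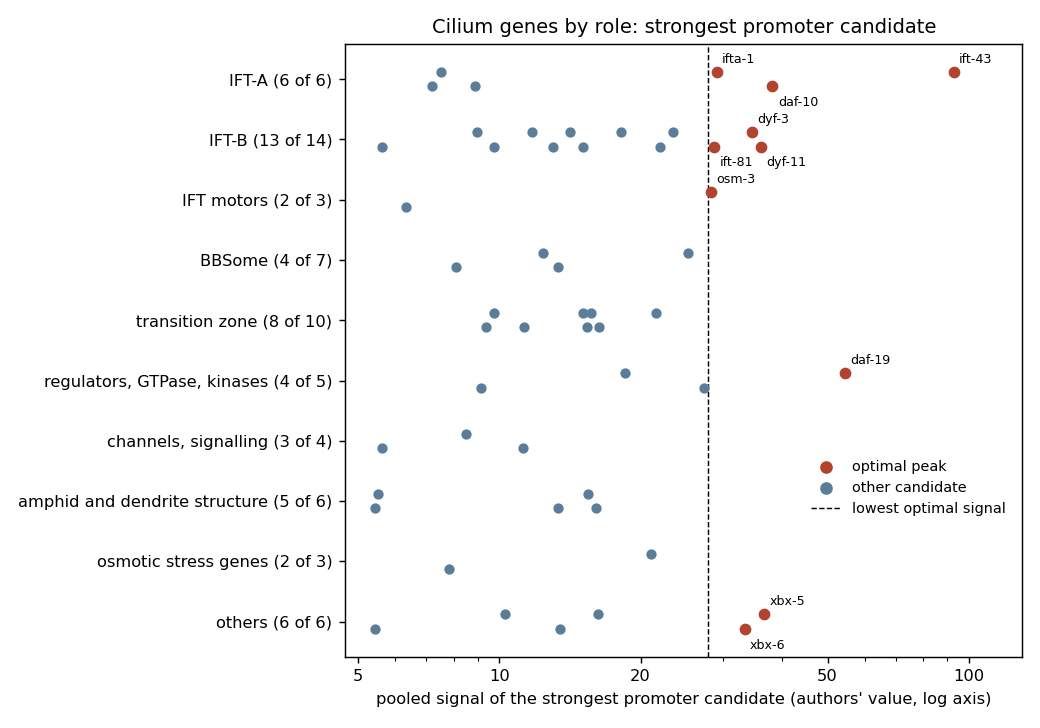
Pooled signal (log axis) of the strongest promoter candidate of each cilium gene, by role, with the number of genes that had a candidate. The dashed line marks the lowest optimal signal, 27.8, and the 10 genes to its right are named.

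Below the optimal list, the next cilium genes lay close to its end. *arl-13*, which encodes a cilium membrane GTPase, had a pooled signal of 27.3 and rank 1966, with 11.7 in replicate 1 and 11.3 in replicate 2. The BBSome gene *bbs-9* followed with 25.3 (rank 2192). It had 16.0 in replicate 1 (rank 1293, in the top list), and no summit of replicate 2 within 100 bp. *osm-5* had 23.5 (rank 2452), with 6.23 in replicate 1 and 16.8 in replicate 2. The limit of the optimal list thus fell between *osm-3* at rank 1877 and *arl-13* at rank 1966. The pooled signals of the next 7 were 22.02 at *dyf-6* (IFT46), 21.55 at *nphp-1* (nephrocystin-1), 21.1 at *osm-11*, 18.6 at the ciliary kinase gene *dyf-5*, 18.2 at *dyf-1* (IFT70), 16.3 at *mks-5* (RPGRIP1L) and 16.2 at *xbx-3*. *osm-11*, one of the osmotic stress genes, was in the top list of replicate 2 (signal 22.9, rank 1310) and had no candidate of replicate 1 in its window.

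**Figure D4:**
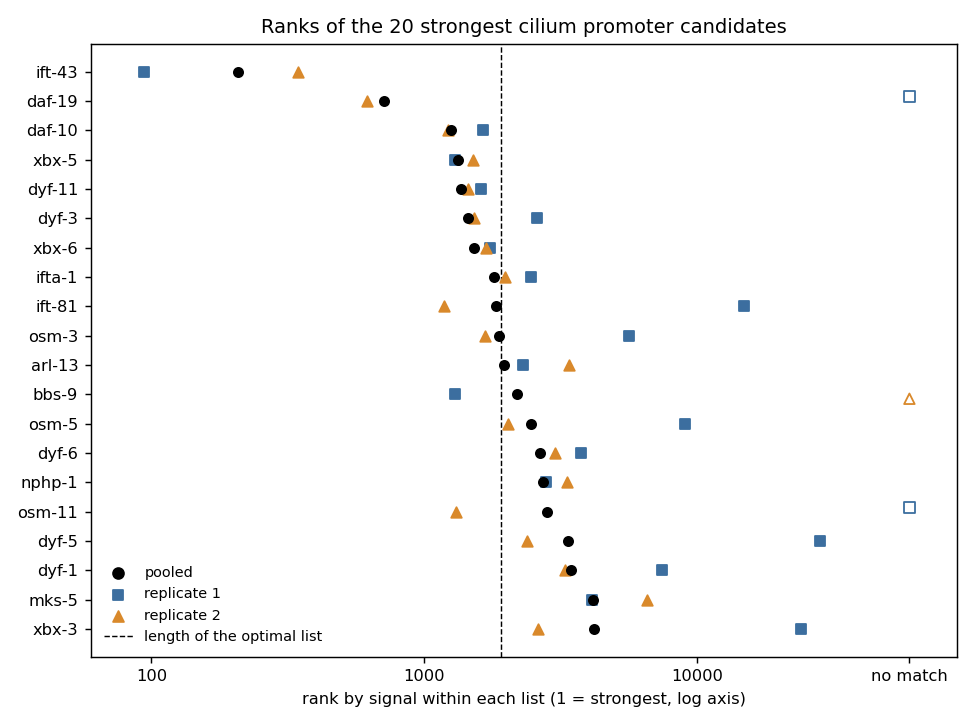
Rank by signal (log axis, 1 is strongest) of the strongest promoter candidates of 20 cilium genes in the pooled list, and of the replicate summits within 100 bp of them. Open symbols mark no such summit. The dashed line is the length of the optimal list, 1917. *xbx-5* ranks 1331, 1294 and 1504 in the pooled list, replicate 1 and replicate 2, and *ift-81* ranks 1834, 14858 and 1178.

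The role groups are small, and their counts with a candidate stand beside 41.0% of all protein-coding genes. Of the 10 transition zone genes 8 had one, all but *mks-1* and *mks-2*, with a median pooled signal of 15.2 and a highest of 21.55. Of the 7 BBSome genes, 4 had one, with a median of 12.9. *bbs-1*, *bbs-2* and *osm-12* had none, although all 7 carried an X-box. In the IFT-A group no gene carried an X-box by the strict consensus, but 4 of 6 did by a looser one. In the IFT-B group the counts were 11 of 14 by the strict consensus and 12 by the looser one. The median signal was 18.96 over the 6 IFT-A genes and 15.1 over 13 IFT-B genes. This order turned round where a summit counted only for the gene of the nearest start, which set aside the peaks near *mdt-26* and *rpb-12*. The medians were then 8.88 over 5 IFT-A genes and 16.6 over 12 IFT-B genes, and *ifta-1* was the only IFT-A gene with an optimal peak. The sensory channel and signalling genes were low, with signals from 5.635 to 11.2 at 3 of 4 genes and no candidate at *che-6*. Of genes for amphid and dendrite structure, 5 of 6 had a candidate, from 5.44 to 16.0, and *dyf-4* had none. *che-1* and *osm-7* also had none.

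Taken over the 53 cilium genes with a candidate, the strongest promoter candidate had a median pooled signal of 14.1, with an interquartile range of 9.14 to 22.02. Over the 8186 protein-coding genes with a candidate the median was 11.2 and the interquartile range 7.54 to 23.4. The cilium genes thus lay in the middle of the range, and their strongest signal of 92.85 compares with 356.0 for all genes.

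By nearest transcript start, 9 cilium genes had an optimal peak (14.1%), against 8.62% of protein-coding genes. Of these, 8 also had the peak in their promoter window, and *dyf-5* was added by a peak 14024 bp past its start, in an intron of *ppfr-1*. That peak had signals of 41.4 pooled, 16.96 in replicate 1 and 21.8 in replicate 2.

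Some cilium genes that the name rule leaves out had peaks too. They were looked up from a list of 41 names that was written out and not set by a rule. Of 40 such genes matched by name, 25 (62.5%) had a pooled candidate and 5 (12.5%) an optimal promoter peak, against the 41.0% and 8.39% of all protein-coding genes given above. In the count of 25, *tmem-138* and *tub-1* share the same candidate. The strongest peak was at *tmem-107*, a transition zone membrane protein gene, with a signal of 121.4, and it was shared with the ribosomal protein gene *rps-26*. *hyls-1*, a centriole protein gene, followed with 87.5, in a window shared with *hpo-9*. The peaks at *dylt-2*, a dynein light chain gene (35.9), and *pdl-1*, the homologue of the lipid-binding protein PDE6D (36.95), lay in no other gene's window, nor did that at the tubulin glutamylase gene *ttll-11* (28.2). The other kinesin-2 subunit genes were below the optimal list, with 27.6 at *klp-11*, 21.6 at *kap-1* and 18.9 at *klp-20*. The ciliome factor gene *fkh-8* had 26.95 (rank 1993). *unc-119*, the gene mutated in the strain, had 23.99 and was not in the optimal list.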

How the data were processed

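Per the deposited notes, ce11 region lists were made for each replicate and for both together, with a control alignment, and an optimal list was derived from them by an irreproducible discovery rate (IDR) threshold. The deposited files have the narrowPeak layout. The tools that aligned the reads and called the regions, and their versions, are not named. The deposited signal of each region (column 7) ranked regions within a list, and its scaling between lists is not stated. The −log10 q-values deposited by the authors were not used for ranking, since 1749 pooled regions share the highest, 3.54. Candidates were not filtered by them either. The *che-2* candidate, at the median signal of the cilium genes, had a value of 1.319. The weakest, at *dyf-17*, had 0.184. Lists on ce10 were not used.

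Summits (start plus column 10) were assigned to protein-coding transcript starts of Ensembl release 115 (WBcel235, the same assembly as ce11) with Python 3.11.15 and pandas 2.3.3. Replicate summits matched within 100 bp. Motifs were searched on both strands. Sequences of *arl-13*, *bbs-1*, *bbs-9*, *ift-20* and *mks-6* are not printed because of the chromosome they lie on. No printed stretch includes more than 30 bases of annotated UTR. Genes, lists and the naming rule were chosen with earlier results of these data known. The rule named every cilium gene with an optimal peak or in a replicate's top list, the next 10 by signal, the motor genes and every gene without a candidate where its group is described. Of the other cilium names, 1 of 41 had no match. Names there beyond those with an optimal peak, and X-box examples among the cilium genes, were chosen after their values were seen, as were the 50 bp limit for X-boxes and the values by role group for the looser X-box and the nearest start. Genes are not replicates and no p-value was computed. The assignment steps were tested on simulated data.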

Additional observations from a re-analysis of the deposited data

How the results depend on the processing

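Of 49 alternatives to 8 results, 43 stayed within 1.5 times the value reported. This measure takes the cilium gene values alone, whose counts cannot exceed 64, and not the share of all genes. With a window of 500 bp upstream to 100 bp downstream the pooled shares were 71.9% against 28.7%, and in replicate 1 51.6% against 27.0%. With 2000 bp upstream to 500 bp downstream they were 84.4% against 57.0%, and in replicate 1 71.9% against 56.3%. The stronger 50% of optimal peaks left 2 cilium genes with an optimal promoter peak (*daf-19* and *ift-43*), 1 by nearest start and 1 matched in both replicates. These shares were 3.12%, 1.56% and 1.56%, against 4.84%, 4.54% and 4.65% of all protein-coding genes. With so few cilium genes left, no direction is read from them. Optimal peaks found in both replicates' top lists left 5 by promoter window (7.81%, against 5.33% of protein-coding genes) and 4 by nearest start (6.25%, against 5.21%). Leaving out a replicate meant using the top list of the other. Without replicate 1 the count was 10 by promoter window (15.6%, against 8.30%) and 9 by nearest start (14.1%, against 8.62%). Without replicate 2 it was 7 by promoter window (10.9%, against 7.79%) and 6 by nearest start (9.38%, against 8.33%). The last share was thus close to that of all protein-coding genes. Limiting the set to genes with 1 transcript start, chosen after seeing the data, left 32 with a pooled candidate, because only 40 cilium genes have 1 start. Other counts with a pooled candidate ran to 54, and the median signal from 13.05 to 15.2. The share of X-boxes at cilium genes with a pooled summit was 29.0% within 25 bp and 61.3% within 100 bp, against 3.76% and 13.1% at other promoters, distances also chosen after seeing the data. With a looser X-box, 38 cilium genes had a match, against 6.90% of protein-coding genes. Depth is unknown, so a missing candidate does not show that no binding occurred.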
